A study of Mus spretus with 12 samples.

Results

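The liver is a main target of growth hormone, and 10 genes of that pathway are described here: Ghr, Stat5b, Socs2, Cish, Igf1, Igfals, Hsd3b5, Elovl3, Mup20 and Mup3. They were chosen by name, as every array spot outside the controls whose gene name in the scanner files equals 1 of the 10 symbols. This gave 22 probes on 22 spots, out of 37074 gene names, 56605 probes and 59305 spots on the array.

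Growth hormone binds its receptor on hepatocytes, the receptor-bound kinase JAK2 phosphorylates STAT5B, and STAT5B enters the nucleus and drives transcription. Among the genes it drives are the circulating growth factor IGF1 with its carrier subunit IGFALS, and the inhibitors SOCS2 and CISH, which dampen the receptor in turn. In mice, growth hormone reaches the liver in pulses in males and more evenly in females, and this pattern maintains sex differences of the liver, with Hsd3b5, Elovl3, Mup20 and Mup3 among the genes that male livers express at higher levels.

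RNA was taken from livers of male mice of SPRET/EiJ, an inbred wild-derived strain of Mus spretus, and measured on 12 one-colour Agilent arrays, 4 in each of 3 groups. All mice were 20 months old when feeding began, ate Teklad diet with corn oil for 60 days and were 22 months old at sampling. The PXDDE mice ate p,p'-DDE, the long-lived breakdown product of the insecticide DDT, at 450 mg/kg of diet, and drank water with must of Pedro Ximenez grapes, which brought 85 mg/L of polyphenols and 31 g/L of sugar as equal parts of glucose and fructose. The DDE mice ate p,p'-DDE at 450 mg/kg and had no must, and the control mice had neither. PXDDE against DDE thus asks what the must water changed, its sugar included, and DDE against control asks what p,p'-DDE changed. Arrays carry replicate numbers in the labels, and 4 mice are stated for PXDDE and for control, with nothing said of pooling. All p-values rest on the variation among the arrays of a group, part of which may be technical.

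Levels are log2 of the processed signal relative to the 75th percentile of the array, so a level of 0 is the brightness of a spot at that percentile. Between 50.1% and 52.0% of spots were well above background on each array, and the median SD within groups was 0.109 over the 18678 genes tested. RNA of other tissues differed between the groups. Summed over 7 markers of the adrenal cortex, the linear signal was 43.9 to 48.6 times the 75th percentile on PXDDE arrays, 2.35 to 2.53 times on DDE arrays and 25.7 to 27.8 times on control arrays, and Cyp11a1 and Cyp11b1 were not well above background on any DDE array. The sum over 10 skeletal muscle markers was 123 to 131 in PXDDE, 166 to 181 in DDE and 440 to 453 in control, and that over 8 markers of the exocrine pancreas was 1167 to 1251 in PXDDE, 173 to 189 in DDE and 213 to 218 in control. The sum over 8 Kupffer cell markers was 41.7 to 44.5 in PXDDE, 58.4 to 62.9 in DDE and 74.8 to 82.4 in control. For 10 hepatocyte markers the sum was 3202 to 3538 in PXDDE, 3663 to 3735 in DDE (3 arrays, as Alb had no value on DDE replicate 1) and 3845 to 4270 in control, so these livers carried the defining RNAs of the labelled tissue. The hepatocyte difference depended on the scale, as the markers' median log2 change in PXDDE against control ran from -0.18 to 0.24 over 6 scalings. The part of these tissue differences in the results below was not tested, and in bulk RNA fewer cells of a type and less RNA per cell cannot be told apart.

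What a probe reads is set by its 60 bases, and 5 probes are shown because results below turn on them. They were designed for the laboratory mouse, mismatches with Mus spretus were not checked, and exons and UTRs were not assigned since no annotation was used here. Coordinates are those of the array files, on mm9. The probe of Socs2 lies at chr10:94875468-94875527 on the minus strand, that of Igfals at chr17:25018251-25018310 on the plus strand, and that of Ghr at chr15:3283509-3290961 on the minus strand, where its 60 bases cover 7453 genomic bases and thus bridge an intron. The probes of Mup20 (chr4:61713671-61713730, minus strand) and Mup3 (chr4:61745794-61745853, minus strand) come from a cluster of near-identical genes. Capitals mark the bases at which they differ from the nearest probe of another gene name on the array, 6 bases for Mup20 and 8 for Mup3, so signal of other major urinary protein genes cannot be kept apart from theirs.
Socs2 A_55_P1992838: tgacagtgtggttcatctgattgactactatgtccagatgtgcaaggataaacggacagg
Igfals A_51_P277088: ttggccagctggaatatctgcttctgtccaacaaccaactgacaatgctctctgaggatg
Ghr A_52_P680941: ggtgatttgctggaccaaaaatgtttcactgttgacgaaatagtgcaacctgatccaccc
Mup20 A_55_P2051486: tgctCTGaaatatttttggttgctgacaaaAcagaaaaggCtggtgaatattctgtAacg
Mup3 A_55_P1971237: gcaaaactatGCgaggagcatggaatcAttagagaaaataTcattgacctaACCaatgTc

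Hsd3b5, Elovl3 and Socs2 fell with p,p'-DDE and were lower still with the must added, while Cish and Igfals moved the opposite way at each step. Each gene is represented by its brightest probe, and all 10 were well above background on all 12 arrays. In DDE against control, 6 of the 10 were called at an adjusted p under 0.05, 2 higher and 4 lower, where 50.3% of all tested genes were called, 24% higher and 26.3% lower. In PXDDE against DDE, 7 were called, 2 higher and 5 lower, against 49.9% of all genes, 20.2% higher and 29.7% lower. In PXDDE against control, 9 were called, 2 higher and 7 lower, against 70.9% of all genes, 31.6% higher and 39.3% lower. The share of members called was thus near that of all genes in DDE against control and above it in the other comparisons, over only 10 genes. Groups were fully separated for 5, 6 and 8 members in the 3 comparisons in this order, where 46.4%, 44.7% and 65.2% of all genes were. The median log2 change of the members was -0.12, -0.27 and -0.35 on this scale, beside -0.02, -0.04 and -0.06 over all genes. It depends on the scale. In PXDDE against control the changes of Mup20, Igf1 and Ghr were -0.36, -0.34 and -0.30 here. With quantile normalisation they were 0.15, 0.15 and 0.12, so the members cannot be said to have fallen as a group.

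**Figure D1:**
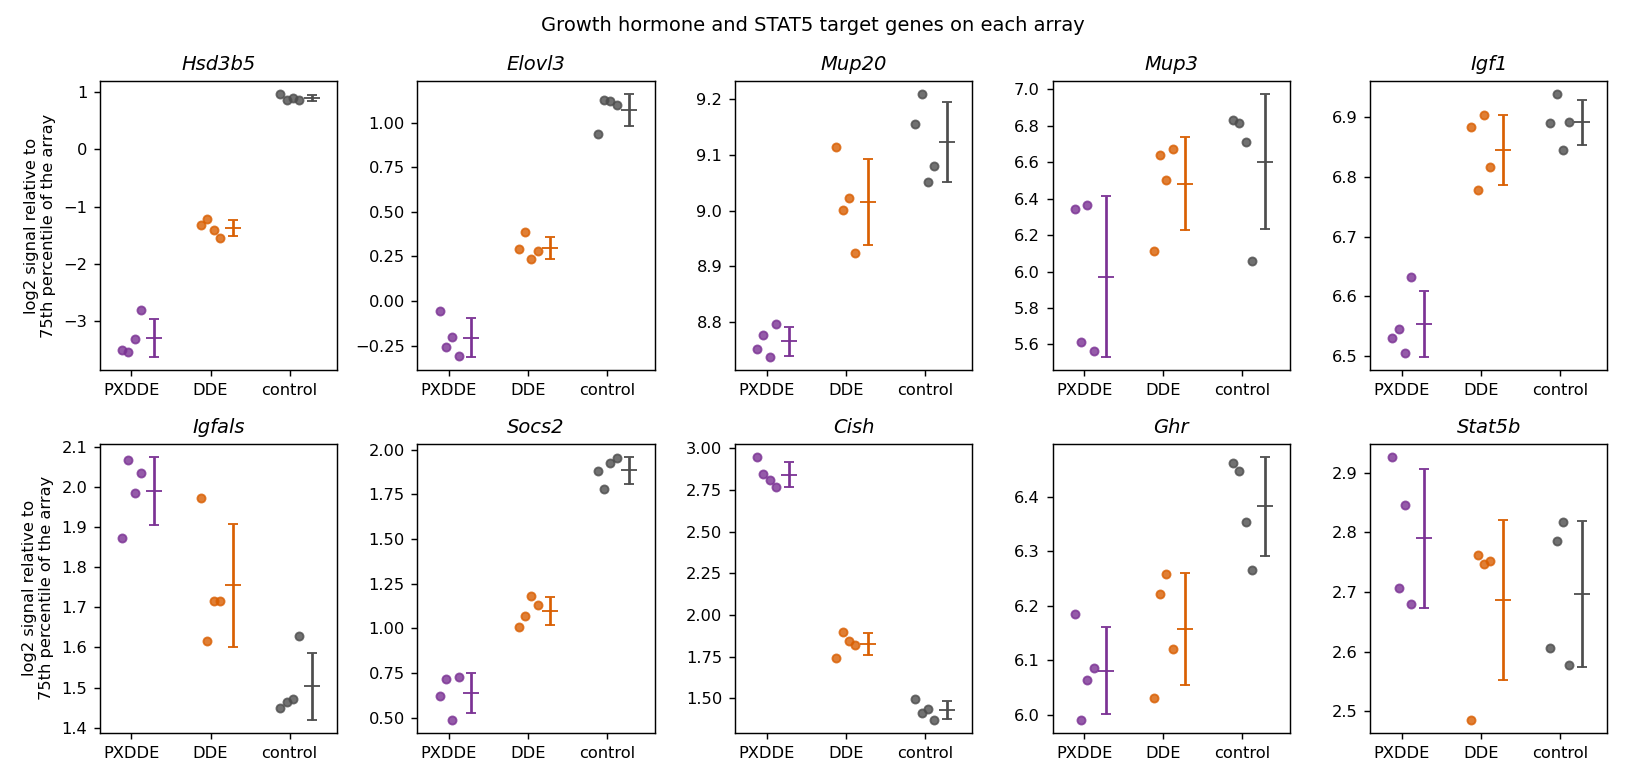
Level of each of the 10 genes on every array (log2 signal relative to the 75th percentile of the array) in PXDDE, DDE and control, with 1 point per array and a bar for the mean with its SD (n = 4). Hsd3b5, Elovl3 and Socs2 stood lowest in PXDDE and highest in control, Cish stood highest in PXDDE and lowest in control, and the axes start at different levels.

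The scale of the arrays sets how firmly small changes of bright genes can be read. Median centring moved the median change of all genes to 0.21 in DDE against control, 0.10 in PXDDE against DDE and 0.32 in PXDDE against control, and in the last comparison quantile normalisation and the deposited values moved it to 0.04 and 0.05. Under 5 other scalings (quantile normalisation, normexp background correction, both together, median centring, the deposited values) Hsd3b5, Elovl3, Socs2 and Cish kept their direction and their call in every comparison, and Igfals kept its direction. Mup20, Igf1 and Ghr, at levels of about 6 to 9, changed sign under some of them. So did the uncalled changes of Mup3 and of Stat5b, at a level of about 2.7, in DDE against control. Of all called genes, 47.7% were higher in DDE than in control, 40.6% higher in PXDDE than in DDE and 44.5% higher in PXDDE than in control; with median centring these shares were 81.3%, 66.3% and 73.1%.

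**Figure D2:**
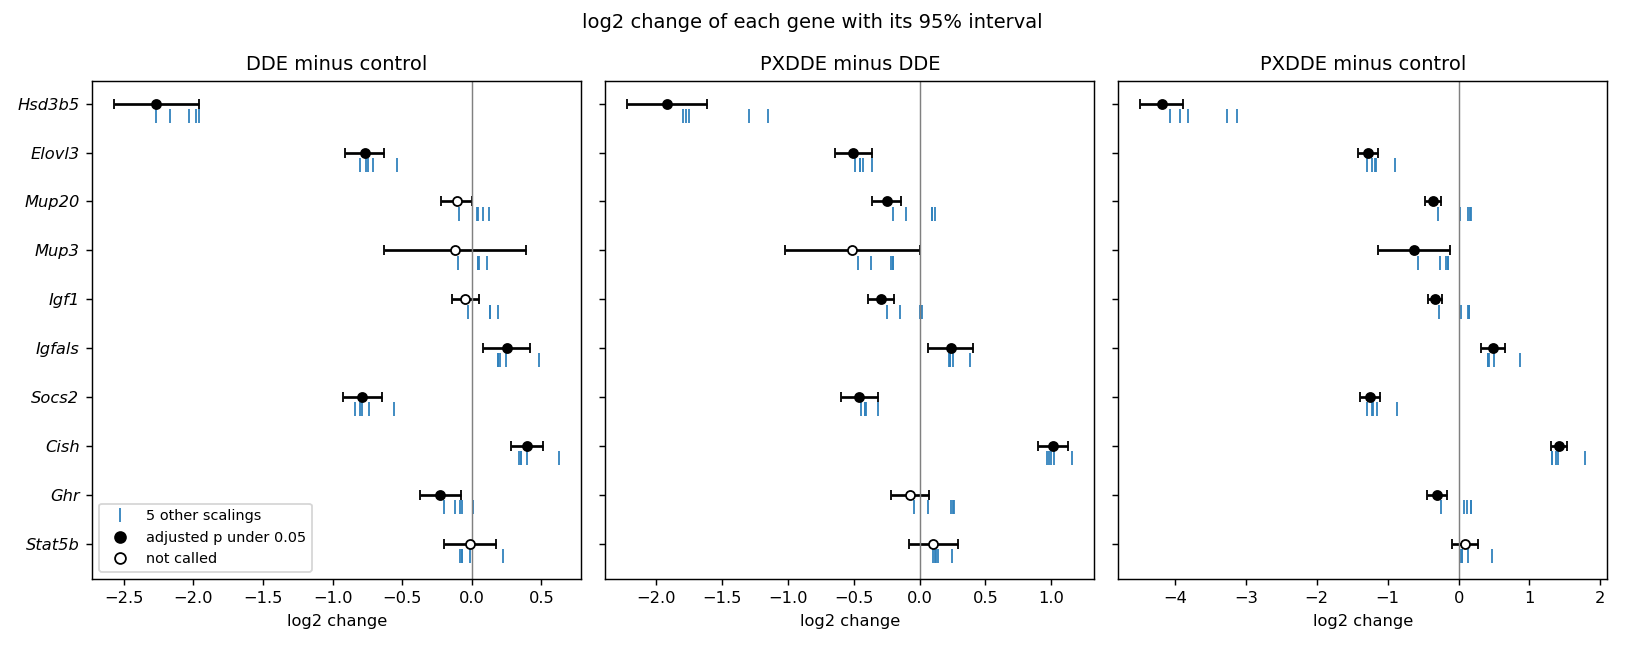
log2 change of each gene with its 95% interval in DDE minus control, PXDDE minus DDE and PXDDE minus control, filled where the adjusted p was under 0.05, with small ticks for 5 other scalings. The ticks of Hsd3b5, Elovl3, Igfals, Socs2 and Cish stay on the side of the main value, and those of Mup20, Igf1 and Ghr lie on both sides of 0. In DDE minus control those of Mup3 and Stat5b do so too.

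Ghr, the receptor gene, was counted above by its brightest probe, which differed little. A probe assigned to another transcript variant, given below, rose in PXDDE against control. On the main scale the probes of Ghr thus did not move together. The brightest of its 4 probes, A_55_P2500473 (chr15:3277543-3277602, transcript variant 2 in the array files), read 6.18, 5.99, 6.06 and 6.09 on the PXDDE arrays, 6.03, 6.22, 6.26 and 6.12 on the DDE arrays and 6.46, 6.45, 6.35 and 6.27 on the control arrays. Every DDE array and every PXDDE array lay below every control array, while the PXDDE and DDE arrays overlapped. The log2 change was -0.22 ± 0.07 in DDE against control (SE, adjusted p = 0.0143), -0.08 in PXDDE against DDE (adjusted p = 0.358) and -0.30 in PXDDE against control (adjusted p = 0.00151), a fall that other scalings turned: the last value was 0.12 with quantile normalisation, 0.18 with normexp and quantile normalisation together, 0.07 with median centring and 0.18 in the deposited values, and the first was no longer called under these 4.

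A further Ghr probe, A_51_P499854, is assigned to transcript variant 1 and lies 9.44 kb from the brightest. It read 4.68, 4.71, 4.55 and 4.76 on PXDDE arrays, 4.41, 4.52, 4.63 and 4.45 on DDE arrays and 4.36, 4.42, 4.33 and 4.33 on control arrays. The PXDDE values all lay above the control values and overlapped the DDE values. In a fit over all 27098 kept probes its log2 change was 0.32 ± 0.06 in PXDDE against control (SE, adjusted p = 0.000635) and 0.17 in PXDDE against DDE (adjusted p = 0.0391), and both stayed positive and called under the 5 other scalings, between 0.27 and 0.69 and between 0.18 and 0.31. With the slide as a block the first was 0.31 (adjusted p = 0.00856) and the second 0.16 and no longer called (adjusted p = 0.126). The second was also lost without DDE replicate 1, 2 or 4, PXDDE replicate 1, 2 or 4 or control replicate 3, with changes of 0.14 to 0.18. In DDE against control it was 0.15 (adjusted p = 0.0662), and it was called without DDE replicate 1 (0.18) or PXDDE replicate 3 (0.15), with normexp (0.15) and with median centring (0.38). The intron-bridging probe shown above was not called in any comparison, with changes of -0.10, 0.04 and -0.06 in DDE against control, PXDDE against DDE and PXDDE against control on the main scale. It was called lower in the first with quantile normalisation, with normexp added to it and in the deposited values (-0.15, -0.14 and -0.15), and higher in the other two with median centring (0.18 and 0.32). The dimmest probe, A_52_P633550, was lower by a log2 change of -0.57 in DDE against control (adjusted p = 0.0211) and -0.90 in PXDDE against control (adjusted p = 0.000841). The first was not called with median centring (-0.34), in the deposited values (-0.43) or without DDE replicate 1, control replicate 2 or control replicate 4 (-0.45, -0.50 and -0.53), and the second was -0.52 with median centring. The difference between the changes of A_51_P499854 and the intron-bridging probe, computed array by array, was 0.24 in DDE against control and 0.37 in PXDDE against control, with no overlap between groups (exact two-sided permutation test over the arrays, adjusted p = 0.039 over 15 such tests, whose smallest possible p was 0.0286 before adjustment). In PXDDE against DDE it was 0.13, and the groups overlapped (exact two-sided permutation test, adjusted p = 0.0659). The change of A_51_P499854 minus that of the brightest Ghr probe depended on the scale. On the main scale it was 0.37 in DDE against control, 0.25 in PXDDE against DDE and 0.62 in PXDDE against control, without overlap. In the deposited values it was 0.11, -0.02 and 0.09, and the groups overlapped each time. These probe pairs and the others tested below were chosen after their values were seen.

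Stat5b, the transcription factor of the pathway, was not called in any comparison by its brightest probe on the main scale. Its brightest probe, A_55_P2031043, read 2.93, 2.71, 2.85 and 2.68 in PXDDE, 2.49, 2.76, 2.75 and 2.75 in DDE and 2.61, 2.79, 2.82 and 2.58 in control, and the 3 groups overlapped. The log2 change and its 95% interval were -0.01 (-0.20 to 0.18) in DDE against control, 0.10 (-0.08 to 0.29) in PXDDE against DDE and 0.09 (-0.09 to 0.28) in PXDDE against control. With the slide as a block the last value was 0.13 (adjusted p = 0.0454). With median centring the changes were 0.22, 0.25 and 0.47 in these comparisons, all called (adjusted p = 0.0425, 0.0301 and 0.000344). A dim probe that the files assign to a cDNA clone, A_52_P663027, lies 40.7 kb away on the genome and was well above background on 9 of 12 arrays. It was called lower in DDE against control and in PXDDE against control and is among the called probes counted below. In DDE it was well above background on 2 of 4 arrays, so the size of its change is not given. With the mean of the gene's probes, this one included, the change of Stat5b in DDE against control was -0.56 (adjusted p = 0.00398).

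**Figure D3:**
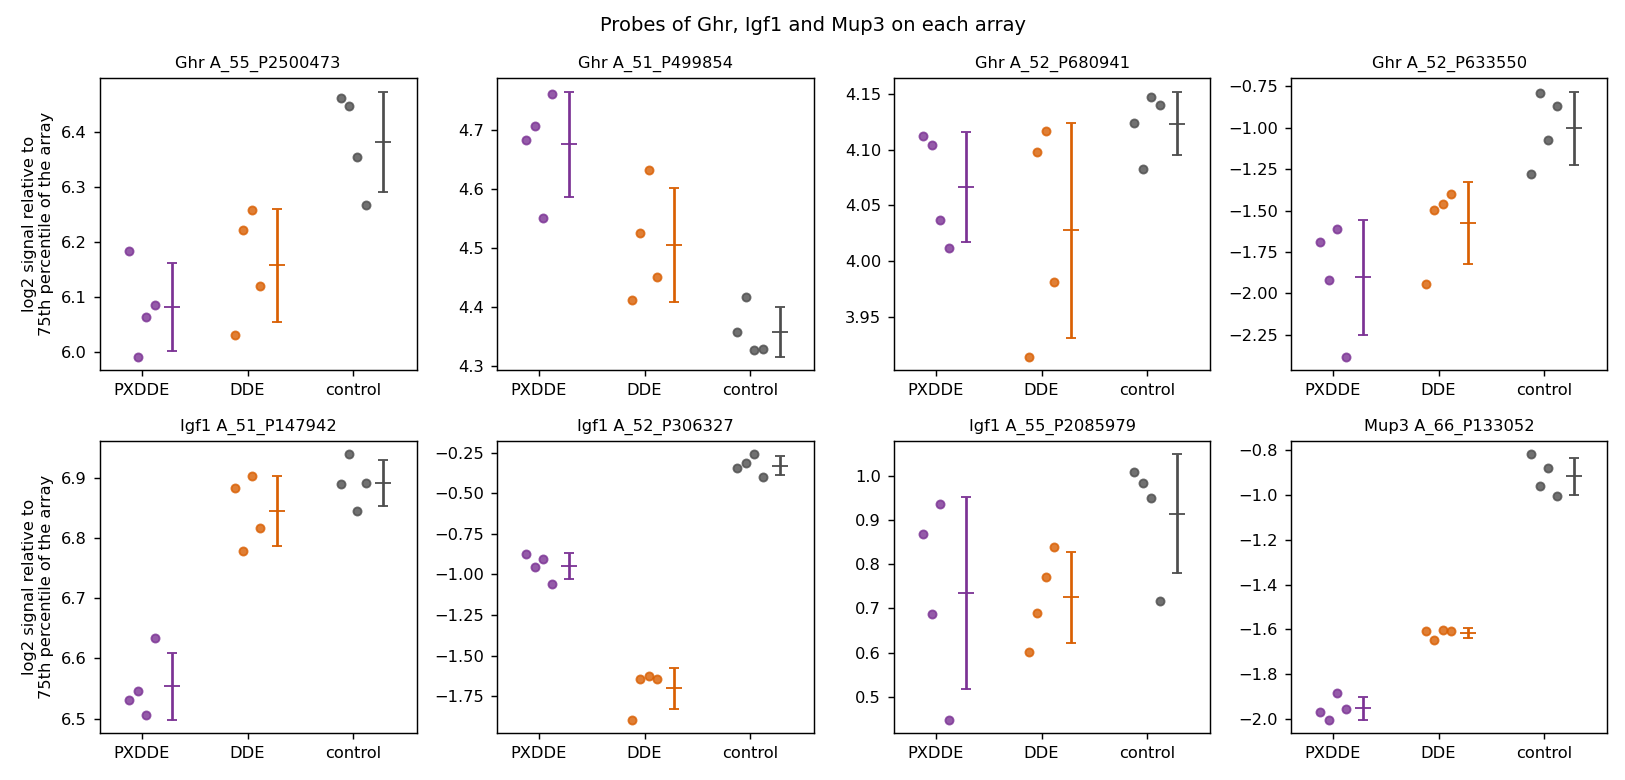
Level of the 4 Ghr probes, the 3 Igf1 probes and the Mup3 probe A_66_P133052 on every array (log2 signal relative to the 75th percentile), with 1 point per array and the mean with SD (n = 4), in PXDDE, DDE and control. Ghr A_51_P499854 stood highest in PXDDE and Ghr A_55_P2500473 highest in control, and Igf1 A_52_P306327 stood lowest in DDE.

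The feedback inhibitors Socs2 and Cish moved in opposite directions. Socs2, which tags the growth hormone receptor for degradation, read 0.62, 0.71, 0.49 and 0.73 on PXDDE arrays, 1.01, 1.07, 1.18 and 1.13 on DDE arrays and 1.88, 1.78, 1.92 and 1.95 on control arrays. The groups were fully apart, lowest in PXDDE and highest in control. It was 1.73-fold lower in DDE than in control (log2 change -0.79 ± 0.06, SE, adjusted p = 2.28e-06) and 1.37-fold lower in PXDDE than in DDE (log2 change -0.46, adjusted p = 0.000139), and 2.37-fold lower in PXDDE than in control (log2 change -1.25, adjusted p = 1.69e-08). Its second kept probe, A_51_P107362, lies 0.402 kb away and fell in the same comparisons, with log2 changes of -0.88 in DDE against control, -0.56 in PXDDE against DDE and -1.45 in PXDDE against control. A further 2 probes named Socs2 were well above background on 0 and 1 of the 12 arrays and were not tested.

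Cish, which blocks STAT5 docking sites on cytokine receptors, read 2.95, 2.84, 2.81 and 2.77 on PXDDE arrays, 1.74, 1.90, 1.84 and 1.82 on DDE arrays and 1.498, 1.41, 1.44 and 1.37 on control arrays. Here too the groups did not overlap, with PXDDE highest. The rise was 1.32-fold in DDE against control (log2 change 0.40 ± 0.05, SE, adjusted p = 8.10e-05), 2.02-fold in PXDDE against DDE (log2 change 1.02, adjusted p = 4.70e-08) and 2.66-fold in PXDDE against control (log2 change 1.41, adjusted p = 1.05e-09). Within the slides that held both groups, the change lay between 0.32 and 0.46, between 0.96 and 1.05 and between 1.39 and 1.51 in these comparisons. The change of Cish minus that of Socs2, which does not depend on a factor common to an array, was 1.18 in DDE against control, 1.47 in PXDDE against DDE and 2.66 in PXDDE against control, each without overlap between groups (exact two-sided permutation test, adjusted p = 0.039). Both genes were already fully apart in opposite directions, so this separation and its p were fixed in advance and add no support. Adrenal cortex, pancreas and muscle markers differed between the same groups, as given above, and their part in the result was not tested.

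Igf1, the growth factor that the liver releases under growth hormone, stood at a high level. Its brightest probe, A_51_P147942 (chr10:87393516-87393575, plus strand, transcript variant 1), read 6.53, 6.55, 6.51 and 6.63 on PXDDE arrays, 6.88, 6.78, 6.90 and 6.82 on DDE arrays and 6.89, 6.94, 6.85 and 6.89 on control arrays. The PXDDE arrays lay below all others, and the DDE and control arrays overlapped. The log2 change was -0.29 ± 0.04 in PXDDE against DDE (SE, adjusted p = 0.000268) and -0.34 in PXDDE against control (adjusted p = 3.52e-05), but quantile normalisation gave 0.02 and 0.15, the deposited values 0.01 and 0.14 and median centring -0.15 and 0.04, so the direction depended on the scale. In DDE against control the change was -0.05 (adjusted p = 0.417), or 0.13 with quantile normalisation (adjusted p = 0.0112). With the mean of the gene's probes it was -0.54 (adjusted p = 1.38e-05).

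A dimmer Igf1 probe gave the clearest difference of this gene. A_52_P306327, which the files assign to a cDNA clone at chr10:87325382-87325441, 68.1 kb from the brightest probe, read -0.87, -0.95, -0.90 and -1.06 on PXDDE arrays, -1.90, -1.65, -1.62 and -1.65 on DDE arrays and -0.34, -0.31, -0.26 and -0.40 on control arrays. DDE was lowest, control highest and PXDDE between them, with no overlap. The log2 change was -1.37 ± 0.07 in DDE against control (SE, adjusted p = 4.92e-08), 0.76 in PXDDE against DDE (adjusted p = 6.53e-06) and -0.62 in PXDDE against control (adjusted p = 8.97e-06), called in the same direction under the 5 other scalings, from -1.33 to -1.10, 0.59 to 0.90 and -0.56 to -0.24. Its change minus that of the brightest probe was -1.33, 1.05 and -0.28 in these comparisons (exact two-sided permutation test, adjusted p = 0.039 each). In PXDDE against DDE both probes were already fully apart in opposite directions, so that test could not have come out otherwise. A probe for transcript variant 2, A_55_P2085979, was not called, with changes of -0.19, 0.01 and -0.18. Adrenal cortex markers were also lowest in DDE, as given above. Of 8 adipocyte markers, 1 rose and 5 fell in DDE against control, and 3 rose and 2 fell in PXDDE against DDE, where 50.3% and 49.9% of all genes were called. What part these tissues had in the values of A_52_P306327 was not tested.

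Igfals, the subunit that holds IGF1 in its large circulating complex, read 1.87, 2.07, 1.98 and 2.04 on PXDDE arrays, 1.97, 1.62, 1.72 and 1.72 on DDE arrays and 1.45, 1.46, 1.47 and 1.63 on control arrays. PXDDE lay above all control arrays, and DDE overlapped both, through its array 1 with PXDDE and its array 2 with control. It was higher by 0.25 on the log2 scale in DDE than in control (SE 0.08, adjusted p = 0.018), by 0.24 in PXDDE than in DDE (adjusted p = 0.0247) and by 0.49 in PXDDE than in control (adjusted p = 0.000141). Only the last was called in all alternatives. The change in DDE against control was not called with quantile normalisation, with normexp added to it or in the deposited values (adjusted p = 0.0552, 0.0567 and 0.0876), and that in PXDDE against DDE was lost without DDE replicate 2, 3 or 4 (0.19, 0.22 and 0.22) or PXDDE replicate 2 or 4 (0.21 and 0.22).

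Among other genes of the IGF system, Igfbp1 and Igfbp2 fell in every comparison. Of 14 on the list, 11 were tested, and 2 rose and 4 fell in DDE against control, 1 rose and 5 fell in PXDDE against DDE, and 1 rose and 6 fell in PXDDE against control. That is 54.5%, 54.5% and 63.6% called, beside 50.3%, 49.9% and 70.9% of all genes. The list's median change was -0.01, -0.08 and -0.23 in these comparisons, and 3 falls in DDE against control, 3 in PXDDE against DDE and 4 in PXDDE against control were called under all 6 scalings. With median centring 5 rose and 3 fell, 2 rose and 3 fell, and 4 rose and 4 fell, and the list's median in PXDDE against control was 0.14. Over all 18678 genes that scaling called 9019, 6476 and 10315 higher and 2078, 3295 and 3802 lower. Igfbp2, a binding protein of IGFs, read -0.45, -0.23, -0.25 and -0.36 in PXDDE, 1.26, 1.31, 1.48 and 1.38 in DDE and 2.82, 2.87, 3.01 and 3.03 in control. Its log2 change was -1.58 in DDE against control (adjusted p = 1.56e-08) and -1.68 in PXDDE against DDE (adjusted p = 9.48e-09). Igfbp1, the binding protein that insulin represses, fell by 1.11 and 0.77 (adjusted p = 3.28e-09 and 8.36e-08), and Igf1r, the receptor of IGF1, changed by 0.49 in DDE against control (adjusted p = 0.00124) and by -1.23 in PXDDE against DDE (adjusted p = 1.21e-06). Igf2r, which clears IGF2, rose by 0.35 and 0.33 (adjusted p = 0.000181 and 0.000291).

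Hsd3b5, a male-specific hepatic enzyme of steroid metabolism, had the largest change of the 10 genes. Its probe (chr3:98422576-98422635, minus strand) read -3.50, -3.54, -3.32 and -2.81 on PXDDE arrays, -1.33, -1.21, -1.40 and -1.55 on DDE arrays and 0.96, 0.86, 0.89 and 0.86 on control arrays. The 3 groups were far apart, and the spread was widest in PXDDE, with an SD of 0.34 against 0.14 in DDE and 0.05 in control. Hsd3b5 was 4.81-fold lower in DDE than in control (log2 change -2.27 ± 0.14, SE, adjusted p = 2.00e-07), 3.78-fold lower in PXDDE than in DDE (log2 change -1.92, adjusted p = 7.77e-07) and 18.2-fold lower in PXDDE than in control (log2 change -4.18, adjusted p = 4.26e-10). With normexp background correction, which lifts dim values, the last change was -3.26 and that in PXDDE against DDE -1.30. Within the slides that held both groups, the change was between -2.51 and -2.10 in DDE against control and between -2.29 and -1.48 in PXDDE against DDE.

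Of the other 3-beta-hydroxysteroid dehydrogenases, Hsd3b2 fell in the same comparisons as Hsd3b5 and most others did not. The Hsd3b5 probe matched the nearest probe of another gene, Hsd3b4, at 42 of 53 overlapping bases, and Hsd3b4 itself did not pass the background filter. Of the 5 others tested, 2 rose and 2 fell in DDE against control, 4 rose and 1 fell in PXDDE against DDE, and 4 rose and 1 fell in PXDDE against control. Over all genes 50.3%, 49.9% and 70.9% were called in these comparisons. Hsd3b2 fell at each step, by 0.55 and 0.35 on the log2 scale, Hsd3b3 rose by 0.19 and 0.29, and Hsd3b7, an enzyme of bile acid synthesis, rose by 0.25 and 0.16. Hsd3b6 changed by -0.09 in DDE against control (adjusted p = 0.293) and rose by 0.58 in PXDDE against DDE. Hsd3b1, the isoform of the adrenal and gonads, changed by -5.49 in DDE against control and 6.02 in PXDDE against DDE. It is itself 1 of the 7 adrenal cortex markers, all of which fell in the first comparison and rose in the second. Hsd3b5 fell in both comparisons.

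Elovl3, a fatty acid elongase that male livers express more strongly, read -0.06, -0.26, -0.20 and -0.31 on PXDDE arrays, 0.29, 0.39, 0.24 and 0.28 on DDE arrays and 0.94, 1.12, 1.12 and 1.097 on control arrays. The groups did not overlap, in the same order as for Hsd3b5. It was 1.71-fold lower in DDE than in control (log2 change -0.77 ± 0.06, SE, adjusted p = 2.67e-06), 1.42-fold lower in PXDDE than in DDE (log2 change -0.50, adjusted p = 6.76e-05) and 2.42-fold lower in PXDDE than in control (log2 change -1.28, adjusted p = 1.38e-08). Of the other 6 elongases, 5 were tested, and 1 rose and 2 fell in DDE against control, 3 rose and 1 fell in PXDDE against DDE, and 3 rose and 2 fell in PXDDE against control. Over all genes 50.3%, 49.9% and 70.9% were called in these comparisons. With median centring none fell in DDE against control, where 2078 of all 18678 genes did. In PXDDE against control 1 fell under each of the 5 other scalings. The single fall in PXDDE against DDE, that of Elovl7, was lost in 13 of 25 alternatives, among them those without DDE replicate 2, 3 or 4, PXDDE replicate 2 or 4 or control replicate 3. Elovl6, which lengthens the products of fatty acid synthesis, fell by 0.45 in DDE against control (adjusted p = 0.00284) and rose by 1.62 in PXDDE against DDE (adjusted p = 2.09e-07), where Elovl3 fell. Elovl1 rose at each step, by 0.56 and 0.28.

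Mup20 and Mup3 encode major urinary proteins, the abundant pheromone carriers that male mouse livers secrete, and both depended on the scale or the slide. The brightest Mup20 probe, A_55_P2063654, read 8.75, 8.78, 8.74 and 8.80 on PXDDE arrays, 9.11, 9.001, 9.02 and 8.92 on DDE arrays and 9.15, 9.21, 9.05 and 9.08 on control arrays. All PXDDE arrays lay below all others. Its log2 change was -0.25 ± 0.05 in PXDDE against DDE (SE, adjusted p = 0.00171) and -0.36 in PXDDE against control (adjusted p = 5.57e-05), while quantile normalisation gave 0.12 and 0.15, and the values as deposited gave 0.10 and 0.17. In DDE against control it was -0.11 (adjusted p = 0.0945), and -0.14 without DDE replicate 1 (adjusted p = 0.0341).

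The brightest Mup3 probe, shown above, read 6.34, 5.62, 6.36 and 5.57 on PXDDE arrays, 6.12, 6.64, 6.50 and 6.67 on DDE arrays and 6.83, 6.82, 6.71 and 6.06 on control arrays. The 4 lowest values within their groups, PXDDE replicates 2 and 4, DDE replicate 1 and control replicate 4, were those of slides 4 and 5, and the Mup20 probe shown above, A_55_P2051486, was low on the same 4 arrays. With the slide as a block, the log2 change of this Mup3 probe in the fit over all probes was -0.14 in DDE against control (adjusted p = 0.164), -0.32 in PXDDE against DDE (adjusted p = 0.0126) and -0.46 in PXDDE against control, where the fit without it gave -0.12, -0.51 (adjusted p = 0.0951) and -0.63 (adjusted p = 0.0304). The last was lost without control replicate 1, 2 or 3 (-0.56, -0.56 and -0.60) and without PXDDE replicate 2 or 4 (-0.51 and -0.50), and it was not called under 4 of the 5 other scalings (-0.26 to -0.15). With the same block, the Mup20 probe A_55_P2051486 changed by 0.09 in DDE against control (adjusted p = 0.171) and by -0.37 in PXDDE against DDE (adjusted p = 0.00139). Without the block the second change was -0.50 (adjusted p = 0.0355), and it was not called with quantile normalisation (-0.19), in the deposited values (-0.20), with median centring (-0.36) or without DDE replicate 2, 3 or 4 or PXDDE replicate 2 or 4 (-0.47 to -0.41).

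**Figure D4:**
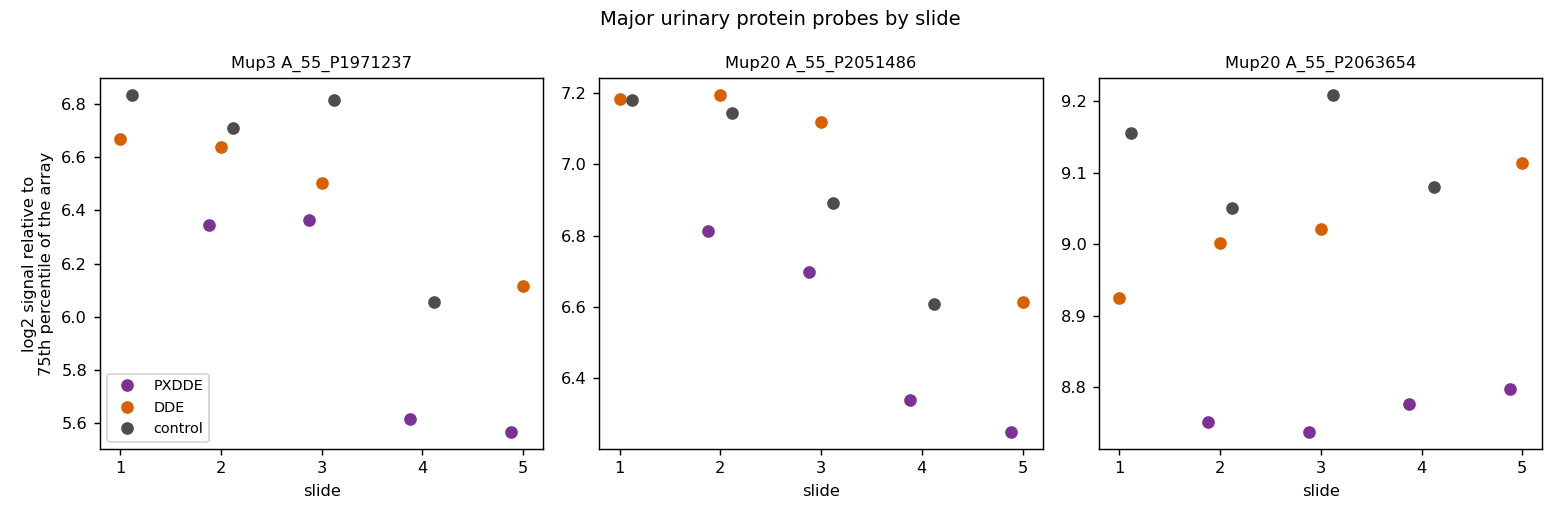
Level of 3 major urinary protein probes (log2 signal relative to the 75th percentile) by slide, with 1 point per array coloured by group (PXDDE, DDE, control). Mup3 A_55_P1971237 and Mup20 A_55_P2051486 were low on slides 4 and 5 in every group they held, and Mup20 A_55_P2063654 was not.

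The dim Mup3 probe A_66_P133052, which the files assign to a cDNA clone 2.46 kb from the brightest, is shown for comparison. It read -1.97, -2.003, -1.88 and -1.95 on PXDDE arrays, -1.61, -1.65, -1.60 and -1.61 on DDE arrays and -0.82, -0.96, -0.88 and -1.004 on control arrays. The groups did not overlap, with PXDDE lowest, and it fell by 0.70 in DDE against control (adjusted p = 8.90e-07), by 0.34 in PXDDE against DDE (adjusted p = 0.000234) and by 1.04 in PXDDE against control (adjusted p = 1.20e-08), called in this direction under all 6 scalings. The difference between its change and that of the brightest Mup3 probe did not pass the test (exact two-sided permutation test, adjusted p = 0.0659, 0.486 and 0.276). Over all probes of the 10 genes, 19 of 22 were tested, and 11 were called in DDE against control, 12 in PXDDE against DDE and 16 in PXDDE against control, beside 47.5%, 45.7% and 68.6% of all kept probes.

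Other major urinary protein genes were lower on the main scale and near 0 on others. Of 19 listed, 9 were on the array, and 7 fell in DDE against control, 8 in PXDDE against DDE and 9 in PXDDE against control, with medians of -0.26, -0.21 and -0.45. Over all genes 26.3%, 29.7% and 39.3% were called lower. In PXDDE against DDE 4 fell without DDE replicate 4 or PXDDE replicate 2, and 5 without PXDDE replicate 1. Under the 5 other scalings the fewest calls of a fall were 1, 1 and 2, and the median nearest to or past 0 was -0.03, 0.01 and -0.06. Mup11 fell by 0.53 in DDE against control (adjusted p = 2.67e-06), and Mup2 fell by 0.41 in PXDDE against DDE (adjusted p = 0.00024). These genes share long stretches of sequence, and the array's signal was not assigned to single copies.

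Among the other genes of growth hormone receptor signalling, all 20 on the list were tested. In DDE against control 8 rose and 5 fell, in PXDDE against DDE 8 rose and 2 fell, and in PXDDE against control 11 rose and 5 fell, with medians of 0.11, 0.11 and 0.19. Calls thus made up 65%, 50% and 80% of the list, beside 50.3%, 49.9% and 70.9% of all genes. With median centring 13 rose and 3 fell, 12 rose and 1 fell, and 15 rose and 2 fell. Over all 18678 genes that scaling called 9019, 6476 and 10315 higher and 2078, 3295 and 3802 lower. In PXDDE against DDE the number that rose was 4 without DDE replicate 2 and 5 without DDE replicate 3 or PXDDE replicate 1, and 1 fell without DDE replicate 2 or PXDDE replicate 2. The kinase Jak2 was not called in any comparison, with changes of 0.00, 0.10 and 0.10, and neither was Stat3. Stat5a, the close relative of Stat5b, was called only in PXDDE against control, with a change of -0.53 (adjusted p = 0.0383). It was lost without PXDDE replicate 4, where the change was -0.34 (adjusted p = 0.109), without PXDDE replicate 3 and without any 1 control array. Irs1, an adaptor of the insulin and IGF receptors, rose at each step by 0.24 and 0.34 (adjusted p = 0.00179 and 0.000174), and its relative Irs2 fell by 0.33 and 0.27 (adjusted p = 0.00716 and 0.0177), the second not called without DDE replicate 2 or PXDDE replicate 2 (-0.24 and -0.25).

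Socs1 and Socs3, further inhibitors of the SOCS family, were lower in DDE than in both other groups. Socs1 read -1.86, -2.15, -1.77 and -1.83 on PXDDE arrays, -3.08, -3.00, -2.83 and -2.69 on DDE arrays and -1.94, -2.30, -2.38 and -2.19 on control arrays. Every DDE array lay below all others, and the log2 change was -0.70 in DDE against control (adjusted p = 0.000495) and 1.00 in PXDDE against DDE (adjusted p = 3.69e-05). Socs3 changed by -0.49 and 0.55 in these comparisons (adjusted p = 1.78e-05 and 6.82e-06) and by 0.06 in PXDDE against control (adjusted p = 0.299, or 0.11 and called without PXDDE replicate 3). The changes of both genes in DDE against control and PXDDE against DDE were called in the same direction under all 6 scalings. Adrenal cortex markers were lowest in DDE too, as given above, and their part in these changes was not tested. Bcl6, a repressor that opposes STAT5 at female-biased genes, changed by 0.16 in DDE against control (adjusted p = 0.00672, called under 3 of 6 scalings) and fell by 0.50 in PXDDE against DDE (adjusted p = 2.45e-06). Onecut1, a liver transcription factor, rose by 0.37 in DDE against control (adjusted p = 0.000337), and its change of 0.15 in PXDDE against DDE (adjusted p = 0.0482) was lost in 10 of 12 fits with 1 array left out. Cux2, a repressor specific to female liver, was dim, well above background on 2 PXDDE, 1 DDE and 4 control arrays, so no change is given for it. It is still among the genes tested and counted on this list and on the female-biased list below.

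**Figure D5:**
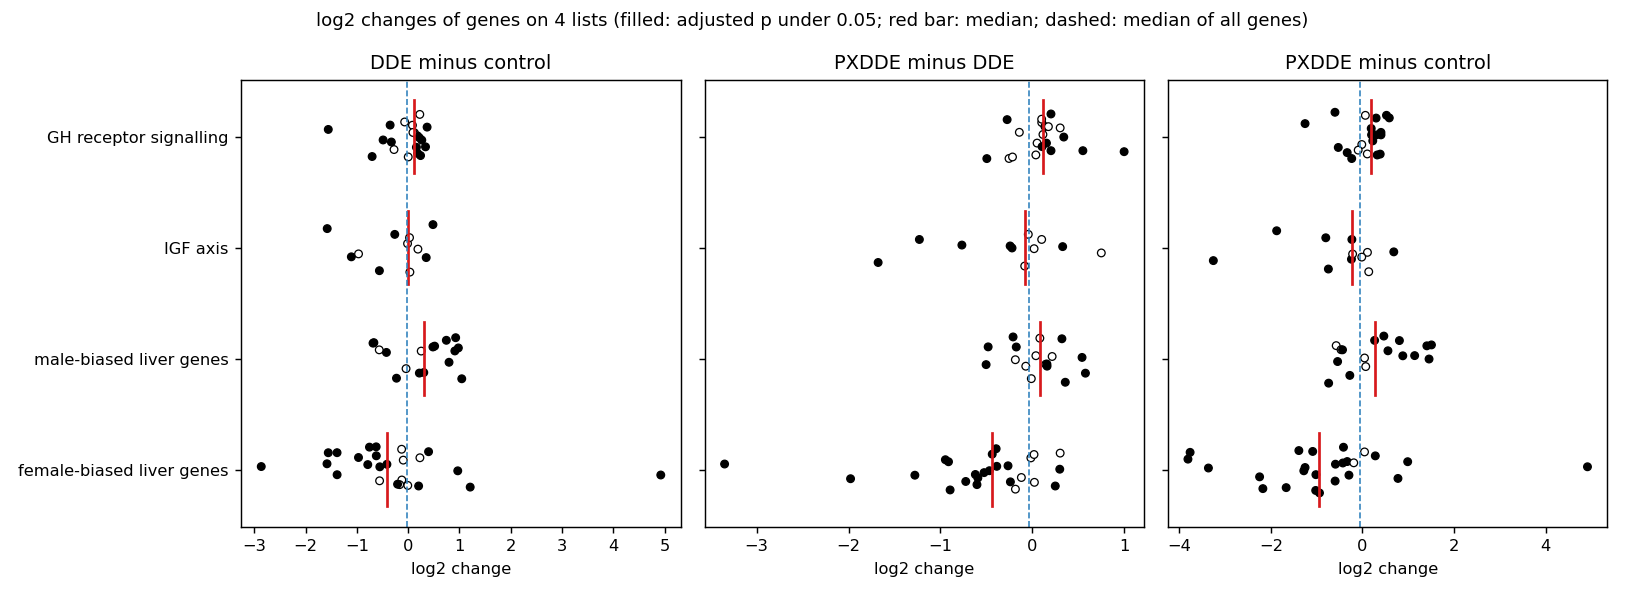
log2 changes of the genes on 4 lists (growth hormone receptor signalling, IGF axis, male-biased and female-biased liver genes) in DDE minus control, PXDDE minus DDE and PXDDE minus control, 1 point per gene, filled where the adjusted p was under 0.05, with a red bar at the list's median and a dashed line at the median of all genes. The female-biased genes lay mostly below 0 in every comparison, with Cyp2b9 at 4.93 and 4.91 in the comparisons with control.

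Sex-biased liver genes were set beside Hsd3b5, Elovl3 and the Mup genes. Of 19 further male-biased genes, 17 were tested, and 10 rose and 4 fell in DDE against control, 6 rose and 4 fell in PXDDE against DDE, and 9 rose and 4 fell in PXDDE against control, with medians of 0.31, 0.08 and 0.26. Calls made up 82.4%, 58.8% and 76.5% of the genes tested, beside 50.3%, 49.9% and 70.9% of all genes. All these rises (10, 6 and 9) were called under all 6 scalings, and of the falls 1, 2 and 1. Hsd3b5 and Elovl3 thus fell where more genes of the list rose than fell. The male-specific Cyp2d9 read 6.54, 6.69, 6.72 and 6.74 in PXDDE, 6.44, 6.24, 6.29 and 6.29 in DDE and 5.20, 5.24, 5.26 and 5.37 in control, and it rose by 1.05 in DDE against control (adjusted p = 1.31e-07) and by 0.36 in PXDDE against DDE (adjusted p = 0.000511). Cyp4a12a, a male-specific fatty acid hydroxylase, rose by 0.91 and 0.54 (adjusted p = 2.84e-07 and 1.80e-05), and Ugt2b38, a glucuronosyltransferase, by 0.98 and 0.16. Nudt7, a peroxisomal hydrolase of coenzyme A, fell by 0.67 in DDE against control.

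Of 28 female-biased genes, 25 were tested, and 5 rose and 13 fell in DDE against control, 2 rose and 17 fell in PXDDE against DDE, and 4 rose and 19 fell in PXDDE against control, with medians of -0.41, -0.44 and -0.94. Calls made up 72%, 76% and 92% of the genes tested, beside 50.3%, 49.9% and 70.9% of all genes. Falls called under all 6 scalings numbered 11, 13 and 14. Sult2a2, a bile acid and steroid sulfotransferase, was not well above background on any PXDDE array and was at least 6.96-fold lower there than in DDE and at least 9.26-fold lower than in control, taking the lowest signal among probes well above background as a floor. The exceptions in DDE against control were Cyp2b9 (4.93), Cyp2a4 (1.21), Cyp2b13 (0.97) and Cyp3a16 (0.40), all cytochromes P450, and the fatty acid transporter Cd36 (0.21); the last 2 are named because the count is small, after their values were seen. With median centring 11, 14 and 14 fell, where 2078, 3295 and 3802 of all 18678 genes did. The genes tested include dim ones such as Cux2, for which no change is given.

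By pattern over the 12 arrays, the genes most like Hsd3b5 among 9406 others with a log2 range of at least 0.5 were Slc22a26, Tgtp2 and Cyp2c69, each with a Pearson r of 0.993. Those most like Socs2 were Lgalsl (0.994), Haus5 and Sln (0.991 each), and those most like the brightest Igf1 probe were Pdcd6 (0.987), Psme2b (0.986) and Vti1b (0.985). Sln encodes sarcolipin, a muscle protein, and its level averaged -0.13 ± 0.04 in PXDDE, 0.73 ± 0.07 in DDE and 2.31 ± 0.07 in control (SD, n = 4 each). All 10 skeletal muscle markers fell in DDE against control, with a median change of -1.33, and 9 of 10 fell in PXDDE against DDE. Over all genes 26.3% and 29.7% were called lower. The part of muscle RNA in the values of Socs2 was not tested. The arrays of a group share their treatment and perhaps their source, so these correlations describe 3 levels more than 12 independent points.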

How the data were processed

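RNA of 12 livers or liver pools was hybridised to one-colour Agilent arrays with 59305 spots besides 3671 controls. Per the file headers, the deposited intensity values were extracted with Agilent Feature Extraction and are background-subtracted and detrended within the array. The authors also deposited a table of log2 values; the submitters' processing notes name Feature Extraction 11.5.1.1, RMA and limma without their roles. Its columns correlated with log2 processed intensity at r = 0.995 to 0.996 and had medians of 5.32 to 5.35, and it served as an alternative.

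Here the value was log2 of the processed intensity minus that of the array's 75th percentile. Outlier spots (102 to 177 an array) were left out, no spot was saturated, and spots of a probe were averaged. Probes had to be well above background on every array of some group (27098 kept), and a gene took its brightest kept probe (18678 genes, 6103 with several). limma 3.58.1 in R 4.3.3 (lmFit, eBayes; group as the only term, 9 residual degrees of freedom) tested all genes, or all kept probes, with Benjamini-Hochberg adjustment and calls under 0.05. The procedure was tested on simulated data. Single differences between probes used exact permutation over 70 splits of 8 arrays. Precision is limited by how many arrays there were. Alternatives were other scalings, filters, probe rules, blocks and arrays left out.

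All members, lists and tests were chosen with earlier results of these data known. All genes of the signalling, IGF, steroid dehydrogenase and elongase lists could be named; of the sex-biased and Mup lists, the 3 called genes with the lowest p in each direction and comparison. Some genes of these lists are not reported here.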

Additional observations from a re-analysis of the deposited data

Results flagged for a closer look

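In 7 of the 57 groups of 4 arrays examined over 19 probes, 1 array lay far from the other 3 by Dixon's criterion; chance alone gives about 1 in 20. Elovl3 was 0.94 on control replicate 1, with the others at 1.097 to 1.12. Igfals was 1.63 on control replicate 4, with the others at 1.45 to 1.47. Mup3 A_55_P1971237 was 6.06 on control replicate 4, with the others at 6.71 to 6.83. DDE replicate 1 stood apart for 3 probes: Stat5b A_55_P2031043 read 2.49 there (others 2.75 to 2.76), Igf1 A_52_P306327 read -1.90 (others -1.65 to -1.62) and Mup20 A_55_P2051486 read 6.61 (others 7.12 to 7.19). Mup3 A_66_P133052 was -1.65 on DDE replicate 2, with the others at -1.61 to -1.60. The low values of Mup3 A_55_P1971237 and Mup20 A_55_P2051486 were from slides 4 and 5, and that of Mup3 A_66_P133052 was from slide 2.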

How the results depend on the processing

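Over 25 alternatives and 750 values of the 10 genes, 673 kept direction and side of the threshold, 22 lost their call, 11 gained one and 44 changed sign; the 20 called ones among these were of Mup20, Igf1 and Ghr. The cause was not tested. Hsd3b5, Elovl3, Socs2 and Cish kept direction and call throughout. Values that changed sign are given in the order quantile normalisation, normexp with quantile normalisation, median centring and deposited values. In DDE against control they were 0.13, 0.13, 0.18 and 0.13 for Igf1, 0.0363, 0.0444, 0.12 and 0.0777 for Mup20, and 0.045, 0.0476, 0.11 and 0.0521 for Mup3. In PXDDE against DDE they were 0.24, 0.26, 0.0666 and 0.25 for Ghr. In PXDDE against control they were 0.12, 0.18, 0.0729 and 0.18 for Ghr, 0.15, 0.14, 0.037 and 0.14 for Igf1, and 0.15, 0.14, 0.0169 and 0.17 for Mup20. With median centring left out of that order, PXDDE against DDE gave 0.0183, 0.00489 and 0.00854 for Igf1 and 0.12, 0.0912 and 0.0958 for Mup20. Ghr in DDE against control was 0.00634 with median centring. Igf1 in PXDDE against DDE was 0.16 and Stat5b in PXDDE against control -0.40 with the mean of a gene's probes. Stat5b in DDE against control was 0.22 with median centring, 0.0055 with the slide as a block, 0.0172 without slides 4 and 5 (an alternative added after seeing the data), and -0.0499 to 0.0569 with arrays left out in turn, where Mup3 in that comparison ran from -0.30 to 0.000519, its highest value without DDE replicate 1.

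Median centring called 9019, 6476 and 10315 of all 18678 genes higher in DDE against control, PXDDE against DDE and PXDDE against control. It called 2078, 3295 and 3802 lower. The number of members higher in DDE than in control was 4 with median centring, and the number lower was 7 with the mean of probes. In PXDDE against DDE 3 were lower with quantile normalisation, with or without normexp, and in the deposited values, and 1 to 2 higher with arrays left out in turn. In PXDDE against control 4, 5 and 5 were higher in those 3 scalings, and 3 lower in each and with median centring. Male-biased genes lower in DDE than in control numbered 2 in those 3 scalings and 1 with median centring, in PXDDE against DDE 2 in all 4, and in PXDDE against control 1 with median centring. Female-biased genes higher in DDE than in control numbered 8 with median centring, and in PXDDE against DDE 1 with normexp, with the mean of probes and without slides 4 and 5. Without the filter, 14103 and 21803 genes were called in PXDDE against DDE and against control.

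Same-numbered arrays did not deviate together (12 pairs, r from -0.37 to 0.13, 1 over 0.1), so the numbers were not taken as a pairing. Arrays of the same slide did so in part (9 pairs, r from -0.11 to 0.35, 5 over 0.1). The main fit holds no term for the slide, which was a block only among the alternatives. With the replicate number as a block, 8785, 8600 and 12937 genes were called in DDE against control, PXDDE against DDE and PXDDE against control, and 1 member was higher in PXDDE than in DDE, as Igfals was no longer called (0.24, adjusted p = 0.0543).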
